A study of Mus musculus with 9 samples.

Results

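The solute carriers are membrane proteins that move ions, metals, sugars, amino acids, nucleotides, vitamins and other small molecules across the plasma membrane and the membranes of organelles, and their genes carry symbols that begin with Slc and a family number. Described here are the Slc genes that were expressed in germinal center B cells of the mouse spleen, taken as every Slc symbol at a single locus whose level reached 1 FPKM (fragments per kilobase of transcript, corrected for library size) in at least 3 of 9 RNA libraries. Of 355 Slc symbols in the tables, 151 reached this level, and 7 of them (Slc2a1, Slc2a3, Slc2a6, Slc7a5, Slc3a2, Slc1a5 and Slc4a1) were left out by name, so that 144 genes remained out of 22977 genes kept in all. They were chosen by their FPKM and by that list of names, and the rule uses no difference between groups. The members just inside the threshold were Slc24a5, Slc28a3 and Slc2a8, whose third-highest libraries had 1.05, 1.09 and 1.10 FPKM, and just outside it lay Slc27a3, Slc4a3 and Slc6a18, with 0.936, 0.897 and 0.890 FPKM. Of the 204 symbols under the threshold, 98 were listed at 0 in all 9 libraries. Among the 144 members, 140 are transporters by name and 4 are only named after one: Slc9a3r1, Slc7a6os, Slc4a1ap and Slc2a4rg-ps.

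The study is about Foxo1, a forkhead transcription factor, and its role in germinal center B cells. The 3 groups, with 3 libraries each, were Foxo1-deficient cells, wild-type dark zone (DZ) cells and wild-type light zone (LZ) cells. All came from C57BL/6 recipients of equal parts of B cells of 2 donor genotypes, CD45.1/2 cells with the Foxo1(f/f) alleles and CD45.1/1 cells with Foxo1(+/+). Both carried B1-8hi and ERT2cre, where B1-8hi is an antibody heavy chain knock-in that binds the hapten NP while ERT2cre is a recombinase switched on by tamoxifen. NP-CGG in alum was given on day 0 and tamoxifen by mouth daily over days 7 to 9, and B220+ NP+ GL7+ CD38-negative cells were sorted on day 12. Foxo1-deficient cells were taken from the whole germinal center gate. DZ cells were low for CD86 and high for CXCR4, and LZ cells were high for CD86 and low for CXCR4. All 3 groups therefore carry the recombinase and the knock-in and met tamoxifen. The lack of Foxo1, the CD45 genotype of the donor and the lack of a zone gate come together and cannot be told apart. The labels do not name the promoter that drives the recombinase, and they pair the CD45.1/2 genotype of the Foxo1(f/f) cells with a CD45.2-negative gate. In bulk RNA, fewer cells of a type and less RNA per cell cannot be told apart.

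Transporters of the Slc families work by facilitated diffusion, exchange or cotransport down an ion gradient, and their supply of nutrients and metals limits the growth of dividing lymphocytes. Within germinal centers, division and antibody mutation take place mainly in the dark zone, and competition for antigen and T cell help in the light zone. The classes below follow the family numbers: Slc25 carriers (30 members), metals (23), nucleosides and nucleotide sugars (22), ions (19), amino acids and peptides (19), vitamins, lipids and other organic solutes (14), organic acids and monocarboxylates (7) and sugars (6). The Slc25 carriers, most but not all of them of the mitochondrial inner membrane, are called mitochondrial carriers below.

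B cell and germinal center markers were high in every library, and transcripts of other cell types differed between the groups. Foxo1 had 3.01, 1.79 and 0.808 FPKM in the Foxo1-deficient libraries, 24.5, 19.5 and 19.1 FPKM in DZ and 14.8, 18.7 and 22.1 FPKM in LZ. The summed FPKM of 5 B cell markers ran from 1665 to 2013, from 1318 to 1569 and from 1690 to 1921 in those 3 groups, and that of 5 germinal center markers from 396 to 457, from 276 to 370 and from 294 to 346. The Foxo1-deficient libraries also held transcripts of myeloid and red cells: 6 myeloid markers summed to 89.0, 111 and 194 FPKM there, against 0.655, 0 and 1.98 FPKM in DZ and 6.63, 4.73 and 2.14 FPKM in LZ. The 7 measured of 8 erythroid markers summed to 201, 170 and 553 FPKM in Foxo1-deficient libraries, 13.1, 21.7 and 13.2 FPKM in DZ and 22.1, 29.7 and 44.4 FPKM in LZ. Across the members, replicates correlated (Pearson's r of log2(FPKM + 1), with genes as points) at 0.827 to 0.892, 0.916 to 0.935 and 0.903 to 0.906, and an estimate of relative depth from the confidence intervals in the tables ran from 0.82 to 1.09.

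A few mitochondrial carriers dominated the levels. The adenine nucleotide translocase Slc25a5, which exchanges ADP and ATP across the inner membrane, had 240, 235 and 202 FPKM in Foxo1-deficient libraries, 309, 268 and 229 FPKM in DZ and 273, 284 and 300 FPKM in LZ. Slc25a3, the mitochondrial phosphate carrier, averaged 158 ± 14, 160 ± 29.7 and 169 ± 11.9 FPKM in the same order of groups, and Slc25a4, a second translocase of adenine nucleotides, 57.2 ± 19.0, 70.0 ± 5.14 and 72.2 ± 11.2 FPKM (SD, n = 3 each). These 3 genes made up 30.3% to 34.1% of the summed FPKM of the members in Foxo1-deficient libraries, 38.8% to 40.0% in DZ and 33.3% to 37.0% in LZ, with no overlap between DZ and the others. None of the 3 passed the test in any comparison. In all, 11 members averaged 20 FPKM or more over the 9 libraries, 18 lay between 10 and 20, 33 between 5 and 10, 45 between 2 and 5, and 37 under 2. The replicate spread grew as levels fell: the median coefficient of variation within DZ was 14.9% in the highest of these bands and 43.8% in the lowest, and within Foxo1-deficient libraries 20% and 59.8%. In 89 members every library reached 1 FPKM, and 17 were listed at 0 in at least 1 library. The members lie on 20 chromosomes, and 16 share their locus with another gene, whose fragments may not be separable from theirs.

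**Figure D1:**
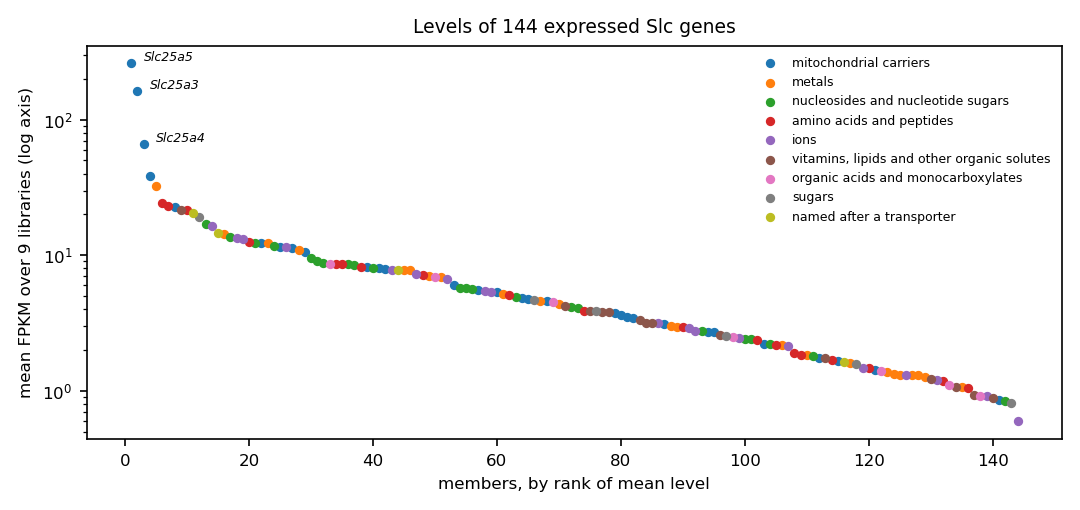
Mean FPKM over the 9 libraries (y axis, log scale) of each of the 144 expressed Slc genes, ordered by rank (x axis) and coloured by transporter class, 1 point per gene. The mitochondrial carriers Slc25a5, Slc25a3 and Slc25a4 stand above the rest, and 37 members lie under 2 FPKM.

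Few members passed the test for a difference between the groups. In Foxo1-deficient cells against LZ, 1 of 144 members passed the test (limma, Benjamini-Hochberg adjusted p under 0.05 over 10004 tested genes), namely Slc40a1, which was higher, while 1.56% of all tested genes passed (0.69% higher and 0.87% lower). Against DZ, Slc40a1 and Slc11a1 rose and Slc36a4 fell in Foxo1-deficient cells, which is 2.08% of the members beside 2.85% of all tested genes (2.1% higher and 0.75% lower). In DZ against LZ, 1 member fell and no member rose, beside 1.94% of all tested genes (0.56% higher and 1.38% lower). These shares are small in members and background alike, and the members as a list did not stand out by calls. The list lacks the 7 genes left out by name, some of which passed. Against LZ, Slc4a1 was higher (adjusted p = 0.00625) and Slc7a5 (0.0223) and Slc2a6 (0.0452) were lower in Foxo1-deficient cells. Slc4a1 was also higher against DZ (0.0038), and Slc2a6 was lower in DZ against LZ (0.0349). Slc4a1, which is also on the erythroid marker list, had 3.83, 3.51 and 8.66 FPKM in Foxo1-deficient libraries. It had 0.0606 FPKM in DZ replicate 1 and 0 in every other DZ and LZ library. It thus reached 1 FPKM only in the group where it is high, and the part of red cells in its value was not tested. The 95% interval of a member's log2 difference had a median half-width of 0.738, without adjustment for the 10004 genes tested. With 3 libraries a group, larger differences also missed the threshold on the adjusted p. Examples are -1.35 for Slc20a1 in DZ against LZ (adjusted p = 0.0569) and -1.66 for Slc14a1 in Foxo1-deficient cells against LZ (0.0652). At an unadjusted p under 0.05 the members counted 13 in Foxo1-deficient cells against LZ (4 higher and 9 lower, 9.03% beside a background of 13.4%, made of 5.79% higher and 7.64% lower), 30 against DZ (23 higher and 7 lower, 20.8% beside 16.3%, made of 11.5% and 4.78%) and 29 in DZ against LZ (2 higher and 27 lower, 20.1% beside 15.4%, made of 3.72% and 11.7%).

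The small differences leaned one way in both comparisons that involve DZ. The median log2 difference of the members, on the log2(FPKM + 1) scale, was 0.30 in Foxo1-deficient cells against DZ, beside 0.12 over all tested genes, and -0.28 in DZ against LZ, beside -0.15 over all tested genes. In Foxo1-deficient cells against LZ it was -0.02 for both. DZ libraries enter the first pair of values on opposite sides and are shared by them. The shift of all genes depended on the scaling: with each library centred on its median it was -0.06 against DZ and 0.04 in DZ against LZ, and with quantile normalization 0.00 and 0.01. Relative to all genes the members' median lay 0.18 higher in Foxo1-deficient cells against DZ and 0.13 lower in DZ against LZ. Centring cannot alter these 2 values, since it moves all genes of a library alike, and quantile normalization gave 0.15 and -0.11. The scaling also moved the direction of calls over all genes: 73.7% of them were higher in Foxo1-deficient cells against DZ, 44.6% with median centring and 60.8% with quantile normalization, and 28.9%, 56.8% and 42.8% were higher in DZ against LZ. The 3 DZ libraries did not overlap the 3 Foxo1-deficient ones in 41 members, 32 of them higher and 9 lower in Foxo1-deficient cells (28.5% beside 23.1% of all tested genes, of which 17.3% higher and 5.78% lower). DZ did not overlap LZ in 41 members either, 35 of them lower and 6 higher in DZ (28.5% beside 22.3%, of which 17.1% lower and 5.16% higher). Foxo1-deficient libraries did not overlap LZ in 22 members, 8 higher and 14 lower (15.3% beside 17.5%, of which 8.12% higher and 9.37% lower).

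**Figure D2:**
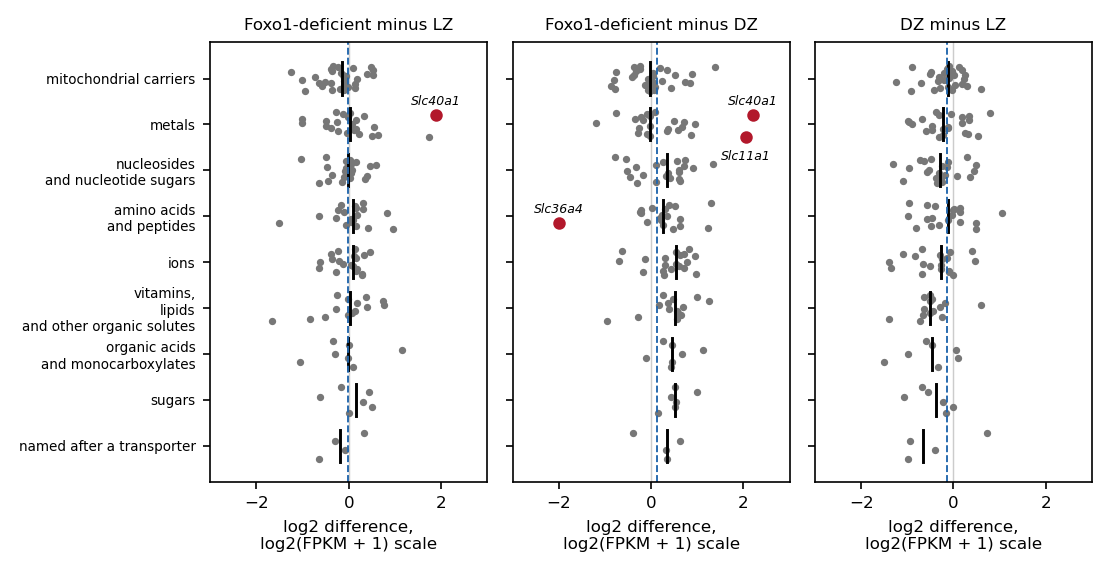
Log2 difference of each member (x axes, log2(FPKM + 1) scale), by transporter class (rows), in Foxo1-deficient cells minus LZ, Foxo1-deficient cells minus DZ and DZ minus LZ. Red points passed the test, grey points did not, black bars are class medians and the dashed line is the median of all 10004 tested genes; the 3 called genes named in the text are labelled, 1 called point is not drawn in DZ minus LZ, and the value of Slc40a1 against DZ, where it is listed at 0, depends on the pseudocount.

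The members with the largest differences between Foxo1-deficient libraries and either zone were Slc40a1 and Slc11a1. Both are metal transporters, and both passed the FPKM filter only through the Foxo1-deficient libraries, where they are high. Slc40a1, or ferroportin, the iron exporter of the plasma membrane (chromosome 1, 45964915 to 45982439, mm9), had 2.79, 3.71 and 4.42 FPKM in Foxo1-deficient libraries, was listed at 0 in all 3 DZ libraries and had 0.420, 0.354 and 0 FPKM in LZ. It reached 1 FPKM in Foxo1-deficient libraries alone, so it entered the members through the group where it is high. Against LZ it rose by 1.88 (95% interval 1.19 to 2.57, adjusted p = 0.0157), a call lost without LZ replicate 2 (adjusted p = 0.0523), without LZ replicate 3 (0.0697), at a pseudocount of 0.1 (0.119) and in a fit of the 2 compared groups alone (0.0671). Against DZ the adjusted p was 0.00427, and it stayed between 0.00274 and 0.0249 in the 16 alternatives. Ferroportin is best known from macrophages that recycle red cells and from the gut.

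Slc11a1 encodes a divalent metal transporter of the phagosome of macrophages and neutrophils (chromosome 1, 74421777 to 74432625, mm9). It had 1.92, 3.50 and 8.78 FPKM in Foxo1-deficient libraries, against 0.263, 0.248 and 0.125 FPKM in DZ and 0.585, 0.663 and 0.288 FPKM in LZ, and it too reached 1 FPKM in Foxo1-deficient libraries alone. The groups did not overlap, and Foxo1-deficient replicate 3 was the highest. Against DZ it rose by 2.06 (interval 1.13 to 2.99, adjusted p = 0.0251), while the difference of 1.75 against LZ did not pass (0.0749). The call against DZ was lost without Foxo1-deficient replicate 2 (0.0607), Foxo1-deficient replicate 3 (0.0503), DZ replicate 1 (0.0839), DZ replicate 2 (0.0853) or DZ replicate 3 (0.0905), with no filter on low values (0.0521) and in a fit of the 2 compared groups alone (0.0629), and it stood against LZ without Foxo1-deficient replicate 1 (2.14, 0.0343). All 6 myeloid markers were above 0 in the 3 Foxo1-deficient libraries, while Tyrobp, Csf1r and Itgam, a signalling adaptor, a growth factor receptor and an integrin of myeloid cells, were at 0 in all DZ libraries. Tyrobp had 19.3, 21.8 and 23.9 FPKM in Foxo1-deficient libraries and 0 in the other 6. Of the neutrophil markers, which summed to 73.6, 121 and 125 FPKM in Foxo1-deficient libraries and at most 2.54 FPKM elsewhere, Mpo and Elane were at 0 in all 9. The part of such cells in the values of Slc40a1 and Slc11a1 was not tested. The bases before the start of Slc11a1 are shown because it is the called metal transporter with a RefSeq entry; they run from the 250th to the last base before the gene start at chr1:74374953-74375202 (plus strand, GRCm38.p6, RefSeq), and neither GTAAACA, the core bound by forkhead factors such as Foxo1, nor CACGTG, the E-box of Myc and related factors, is in these letters on either strand.
Slc11a1: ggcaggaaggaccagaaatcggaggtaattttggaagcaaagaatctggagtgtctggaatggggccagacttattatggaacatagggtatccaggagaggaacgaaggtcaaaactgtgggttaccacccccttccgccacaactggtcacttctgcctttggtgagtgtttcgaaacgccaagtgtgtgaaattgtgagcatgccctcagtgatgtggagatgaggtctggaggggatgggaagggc

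**Figure D3:**
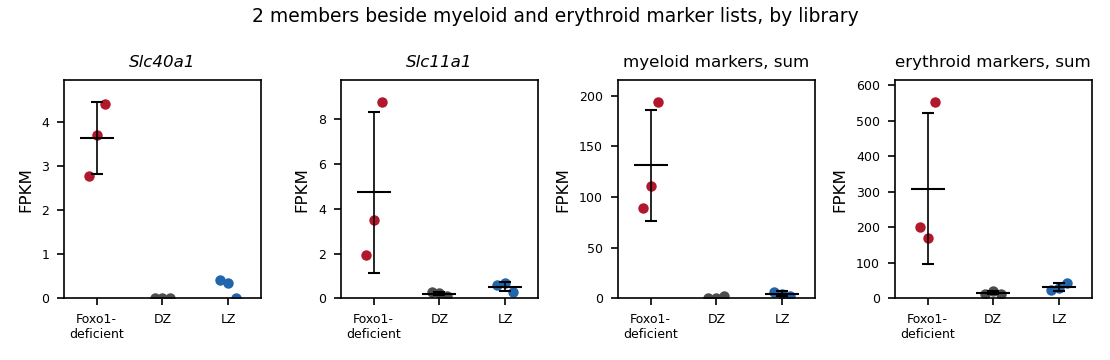
FPKM of Slc40a1 and Slc11a1, and summed FPKM of the myeloid and erythroid marker lists (y axes), in the 3 libraries of each group (points); bars are the mean and SD, left out where a library is at 0. The Foxo1-deficient libraries are the highest in every panel, with summed myeloid markers of 89.0 to 194 FPKM and at most 6.63 FPKM elsewhere.

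The other metal transporters differed little or in either direction. Slc30a5, a zinc transporter of the secretory pathway and the metal transporter with the highest level, had 28.4, 22.7 and 39.1 FPKM in Foxo1-deficient libraries, 40.0, 38.1 and 31.0 FPKM in DZ and 39.5, 34.2 and 20.1 FPKM in LZ, with overlap throughout. The magnesium transporter Slc41a2 had 15.9, 12.3 and 7.62 FPKM in Foxo1-deficient libraries, 22.4, 21.9 and 16.3 FPKM in DZ and 10.7, 12.2 and 10.7 FPKM in LZ. DZ lay above both other groups without overlap, but the differences of -0.75 against DZ in Foxo1-deficient cells (adjusted p = 0.171) and 0.79 in DZ against LZ (0.172) did not pass; with median centring the first did (-0.93, 0.0472). The zinc importer family gave values in both directions. Slc39a11 had 1.84, 1.21 and 0.787 FPKM in Foxo1-deficient libraries, 6.07, 3.05 and 3.60 FPKM in DZ and 3.42, 3.35 and 3.66 FPKM in LZ, lower than both zones without overlap. Its log2 difference was -1.18 against DZ (0.0765; 0.0334 with median centring and 0.0266 with quantile normalization) and -1.0 against LZ (0.173). Slc39a10, which sustains B cells in the mouse, had 3.64, 4.57 and 3.29 FPKM in Foxo1-deficient libraries, 1.44, 1.19 and 1.82 FPKM in DZ and 3.37, 3.85 and 3.52 FPKM in LZ. It was the reverse of Slc39a11 in placing DZ lowest, by 0.96 in Foxo1-deficient cells against DZ (0.0950) and by -0.89 in DZ against LZ (0.144). Slc39a6 averaged 5.13 ± 1.33, 6.89 ± 2.51 and 11.3 ± 2.60 FPKM in Foxo1-deficient, DZ and LZ libraries, with a difference of -1.01 against LZ (0.147). The summed FPKM of the 9 Slc39 members lay between 39.1 and 49.0 in Foxo1-deficient libraries, 40.0 and 51.6 in DZ and 53.9 and 55.6 in LZ, and that of the 6 zinc exporters of Slc30 between 41.2 and 54.4, 40.4 and 53.5, and 34.1 and 56.4. Slc11a2, the endosomal and gut iron importer, stayed between 0.470 and 2.20 FPKM in all libraries, and Slc30a7, a Golgi zinc transporter, between 1.01 and 3.76 FPKM. The sodium and magnesium exchanger Slc41a1 had intervals of -0.71 to 0.45, -0.67 to 0.49 and -0.62 to 0.54 in the 3 comparisons. The median of the 23 metal transporters was 0.03, -0.02 and -0.22 in Foxo1-deficient cells against LZ, Foxo1-deficient cells against DZ and DZ against LZ, and the first 2 of these changed sign when single libraries were left out (0.37 against DZ without Foxo1-deficient replicate 3, and the last was -0.12 without DZ replicate 3).

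Of the other mitochondrial carriers named, none passed in any comparison. Slc25a45, an orphan carrier, had 8.60, 10.5 and 5.08 FPKM in Foxo1-deficient libraries, 3.39, 3.36 and 0.976 FPKM in DZ and 7.56, 4.84 and 3.93 FPKM in LZ, and its difference from DZ was 1.38 (adjusted p = 0.0967). DZ was lowest, without overlap. Slc25a15, which exchanges ornithine and citrulline for the urea cycle and polyamine synthesis, lay lower in Foxo1-deficient cells, with 2.64, 1.24 and 1.05 FPKM, than in DZ, with 3.60, 3.66 and 3.69 FPKM (-0.86, 0.192). Slc25a26, the carrier of S-adenosylmethionine into mitochondria, had 0.539, 0 and 0 FPKM in Foxo1-deficient libraries, 1.15, 0.913 and 1.01 FPKM in DZ and 1.9, 0.903 and 1.28 FPKM in LZ. It shares its locus with Lrig1 and did not pass against DZ (0.253) or LZ (0.192). Of the mitoferrins, which bring iron in for heme and iron-sulfur clusters, Slc25a28 stayed between 6.36 and 12.5 FPKM with overlap throughout. Slc25a37, the mitoferrin known from red cell precursors, had 9.14, 6.12 and 18.6 FPKM in Foxo1-deficient libraries, 4.59, 5.50 and 5.04 FPKM in DZ and 8.92, 6.29 and 7.54 FPKM in LZ (0.90 against DZ, 0.217). Its highest library, Foxo1-deficient replicate 3, was also the one with 553 FPKM of erythroid markers, and their part in the value was not tested. Of the 30 mitochondrial carriers, 22 had a negative difference in Foxo1-deficient cells against LZ and 8 a positive one, beside 48.0% of all tested genes with a positive one. At an unadjusted p under 0.05, 3 were lower and 0 higher there, beside 7.64% and 5.79% of all tested genes. The class median was -0.15, -0.02 and -0.11 in Foxo1-deficient cells against LZ, Foxo1-deficient cells against DZ and DZ against LZ, and the last became 0.08 with median centring and 0.01 with quantile normalization. With 1 library left out these ran from -0.33 (without Foxo1-deficient replicate 1) to -0.09, from -0.22 (without Foxo1-deficient replicate 1) to 0.06 (without Foxo1-deficient replicate 3) and from -0.21 (without LZ replicate 3) to -0.01 (without DZ replicate 3). The second changed sign without DZ replicate 1 or Foxo1-deficient replicate 2 or 3. As a sum, the class had 577 to 703 FPKM in Foxo1-deficient libraries, 567 to 755 FPKM in DZ and 725 to 762 FPKM in LZ.

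**Figure D4:**
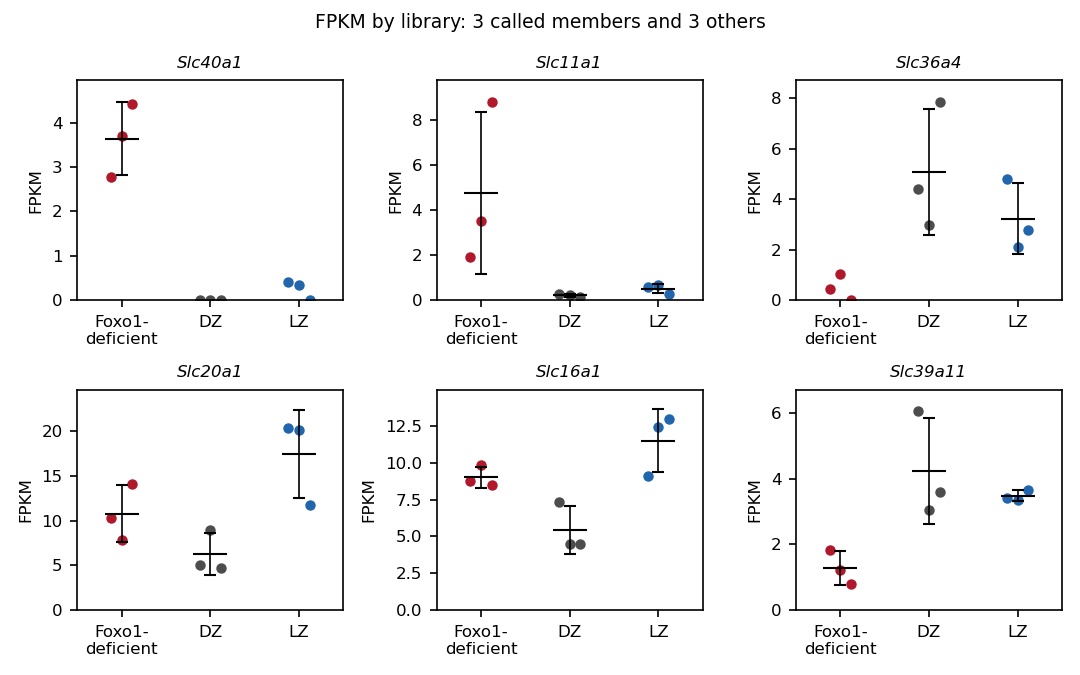
FPKM (y axes, from 0) in the 3 libraries of each group (points) for 3 members that passed the test in a comparison (top row) and 3 that did not (bottom row), with the mean and SD as bars, left out where a library is at 0. Slc40a1 and Slc11a1 are highest in Foxo1-deficient libraries and Slc36a4 is lowest there, at 0 to 1.04 FPKM.

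Among the 19 amino acid and peptide transporters, Slc36a4 fell in Foxo1-deficient cells against DZ. It encodes a transporter of small neutral amino acids related to the proton-coupled carriers of lysosomes (chromosome 9, 15514213 to 15543233, mm9). Foxo1-deficient libraries had 0.457, 1.04 and 0 FPKM, DZ libraries 4.41, 2.98 and 7.84 FPKM and LZ libraries 4.79, 2.11 and 2.8 FPKM. The Foxo1-deficient libraries lay below all 6 others. The difference was -2.0 against DZ (interval -2.89 to -1.11, adjusted p = 0.0243) and -1.51 against LZ, which did not pass (0.112). The call was lost without Foxo1-deficient replicate 1 (0.0640), Foxo1-deficient replicate 3 (0.0706), DZ replicate 1 (0.0831) or DZ replicate 3 (0.0995), at a pseudocount of 0.1 (0.0572), with no filter (0.0657), with the replicate block (0.0520) and in a fit of the 2 compared groups alone (0.0508). Its upstream bases, shown as those of the called member that was lower without Foxo1, lie at chr9:15709488-15709737 (plus strand, GRCm38.p6, RefSeq), again the 250 before the gene start, and hold neither GTAAACA nor CACGTG.
Slc36a4: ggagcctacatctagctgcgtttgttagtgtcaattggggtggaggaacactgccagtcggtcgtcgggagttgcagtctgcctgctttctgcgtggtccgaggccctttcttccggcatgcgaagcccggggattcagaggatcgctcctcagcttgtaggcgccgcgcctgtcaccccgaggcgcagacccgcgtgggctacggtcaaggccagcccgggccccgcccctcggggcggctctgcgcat

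None of the other amino acid transporters passed, and 7 of the 19 had a positive DZ minus LZ difference, beside 34.8% of all tested genes. Slc38a2, the sodium-coupled importer of glutamine and alanine with the highest level in the class, had 23.9, 31.9 and 27.2 FPKM in Foxo1-deficient libraries, 19.2, 17.4 and 15.7 FPKM in DZ and 25.6, 34.3 and 21.3 FPKM in LZ. DZ lay below the others without overlap (0.63 in Foxo1-deficient cells against DZ, 0.153, and -0.58 in DZ against LZ, 0.208). Slc15a4, the lysosomal histidine and peptide transporter needed for endosomal Toll-like receptor signalling, averaged 27.2 ± 5.54, 17.8 ± 7.24 and 24.0 ± 1.97 FPKM in Foxo1-deficient, DZ and LZ libraries, and DZ overlapped both. Its relative Slc15a3, which the macrophage list also holds, had 8.95, 9.77 and 11.5 FPKM in Foxo1-deficient libraries, 6.39, 2.56 and 2.97 FPKM in DZ and 9.35, 7.17 and 5.70 FPKM in LZ. The difference of 1.23 against DZ missed the threshold (0.0651) and passed without DZ replicate 1 (0.0355). It shares its locus with Tmem132a, and LZ overlapped Foxo1-deficient cells. Summed myeloid markers had 89.0 to 194 FPKM in Foxo1-deficient libraries, 0 to 1.98 FPKM in DZ and 2.14 to 6.63 FPKM in LZ, and their part in its value was not tested. Slc7a7, a light chain of the cationic amino acid exchanger, had 7.97, 10.9 and 3.46 FPKM in Foxo1-deficient libraries, 3.35, 3.10 and 0.827 FPKM in DZ and 4.71, 4.21 and 7.24 FPKM in LZ (1.29 against DZ, 0.166). The importer of large neutral amino acids Slc43a1 went the other way in DZ, with 2.59, 1.61 and 0.743 FPKM, against 0, 0.189 and 0.560 FPKM in LZ (1.05, 0.231). The peptide transporter Slc15a2 had 2.26, 4.15 and 2.18 FPKM in Foxo1-deficient libraries, 1.07, 2.31 and 1.88 FPKM in DZ and 2.22, 0.637 and 0.370 FPKM in LZ (0.96 in Foxo1-deficient cells against LZ, 0.313). The class medians were 0.10, 0.26 and -0.11, and the last became 0.08 with either scaling and 0.04 without DZ replicate 3, where the one against DZ was 0.08.

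Of the 19 ion transporters, 17 had a negative DZ minus LZ difference and 15 a positive one in Foxo1-deficient cells against DZ, though none passed the test in any comparison. Over all tested genes 34.8% had a positive DZ minus LZ difference and 61.2% a positive one in Foxo1-deficient cells against DZ. At an unadjusted p under 0.05, 5 of the 19 were lower in DZ than in LZ (11.7% of all tested genes) and 4 higher in Foxo1-deficient cells than in DZ (11.5%). Slc20a1, a sodium-coupled importer of phosphate, was the member nearest to passing. It had 10.3, 7.86 and 14.1 FPKM in Foxo1-deficient libraries, 5.04, 9.00 and 4.74 FPKM in DZ and 20.4, 20.1 and 11.8 FPKM in LZ. DZ lay below LZ without overlap, by -1.35 (interval -2.04 to -0.66, adjusted p = 0.0569), and the Foxo1-deficient libraries overlapped both. Tested among the genes with a mean of at least 5 FPKM, it passed (0.0425). Slc12a2, which imports sodium, potassium and chloride, averaged 6.31 ± 1.68, 4.90 ± 0.186 and 5.17 ± 2.33 FPKM in Foxo1-deficient, DZ and LZ libraries, with overlap throughout. The bicarbonate importer Slc4a7 averaged 14.7 ± 1.60, 11.8 ± 1.38 and 13.9 ± 5.90 FPKM. Slc9a7, which exchanges sodium for protons in the trans-Golgi network, averaged 10.3 ± 2.55, 16.3 ± 2.65 and 13.0 ± 6.29 FPKM. Slc9a7 was one of 4 ion transporters with a negative difference from DZ in Foxo1-deficient cells (-0.63, 0.383). The anion transporter Slc26a11 had 1.49, 1.17 and 1.23 FPKM in Foxo1-deficient libraries, 0.635, 0 and 0.465 FPKM in DZ and 2.98, 1.07 and 4.21 FPKM in LZ (DZ minus LZ -1.39, 0.116). The class medians of 0.54 in Foxo1-deficient cells against DZ and -0.26 in DZ against LZ kept their sign with median centring (0.36 and -0.08) and quantile normalization (0.33 and -0.07). They were 0.30 without Foxo1-deficient replicate 1, and -0.48 without LZ replicate 1 and -0.50 without LZ replicate 3.

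Upstream sequence of Slc20a1 and of the lactate transporter Slc16a1 is shown because both lay lowest in DZ and carry the E-box CACGTG, given in capitals. Over the RefSeq windows of 300 bases (250 before to 50 after each gene start), 112 members matched by symbol, with 153 promoters. CACGTG stood in 23 of these, or 15%, beside 7.15% of all 32851 promoters of the same length, and GTAAACA stood in 2, or 1.31%, beside 3.65%, both searched on both strands (CACGTG reads the same on each). The 32851 promoters are not limited to expressed genes. The 22 members with CACGTG had a negative DZ minus LZ difference in 16 cases (72.7%), and all 144 members in 109 (75.7%). The 144 include those 22 as well as members that no promoter matched. Whether the motif goes with a lower level in DZ was not tested. The 250 bases before the first of 2 RefSeq starts of Slc20a1, at chr2:129198523-129198772 (plus strand, GRCm38.p6), hold the motif 175 and 22 bases before the start, and those of Slc16a1, at chr3:104638414-104638663 (plus strand), hold it 200 bases before. A second RefSeq promoter of Slc20a1, with its 250 bases at chr2:129206846-129207095 (plus strand), holds neither motif.
Slc20a1: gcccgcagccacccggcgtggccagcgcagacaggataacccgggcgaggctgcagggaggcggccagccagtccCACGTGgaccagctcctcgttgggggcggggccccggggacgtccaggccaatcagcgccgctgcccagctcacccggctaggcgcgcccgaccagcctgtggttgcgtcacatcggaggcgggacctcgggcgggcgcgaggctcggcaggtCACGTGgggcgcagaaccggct
Slc16a1: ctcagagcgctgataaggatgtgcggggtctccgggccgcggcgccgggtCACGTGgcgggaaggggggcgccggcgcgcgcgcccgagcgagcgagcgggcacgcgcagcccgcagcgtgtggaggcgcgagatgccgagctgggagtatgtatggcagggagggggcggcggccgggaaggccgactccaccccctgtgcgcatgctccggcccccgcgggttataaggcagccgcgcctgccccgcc

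None of the 7 organic acid transporters passed in any comparison. Slc16a1, which moves lactate, pyruvate and ketone bodies with a proton, had 8.79, 9.84 and 8.48 FPKM in Foxo1-deficient libraries, 7.33, 4.49 and 4.48 FPKM in DZ and 9.10, 12.5 and 13.0 FPKM in LZ. DZ was lowest without overlap, by -0.98 against LZ (adjusted p = 0.0862) and with a difference of 0.67 in Foxo1-deficient cells against DZ (0.212). Slc16a3, the lactate exporter of glycolytic cells, had 1.39, 2.54 and 2.06 FPKM in Foxo1-deficient libraries, 0.422, 0.789 and 0 FPKM in DZ and 0.340, 0 and 0.716 FPKM in LZ. It is the last of the 3 members, beside Slc40a1 and Slc11a1, that reached 1 FPKM in Foxo1-deficient libraries alone, and it did not pass against DZ (1.12, 0.148) or LZ (1.17, 0.169). Macrophages and neutrophils also express it, and their part in its value was not tested. Slc16a6, a monocarboxylate transporter that shares its locus with Arsg, averaged 7.71 ± 0.922, 5.44 ± 1.58 and 7.72 ± 1.11 FPKM in Foxo1-deficient, DZ and LZ libraries. Slc10a3, an orphan relative of the bile acid carriers, had 1.51, 0.396 and 3.71 FPKM, 0.377, 0.448 and 2.23 FPKM, and 2.29, 6.52 and 4.92 FPKM in those groups, with a DZ minus LZ difference of -1.5 (0.190).

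All 6 sugar transporters among the members had a positive difference in Foxo1-deficient cells against DZ and a negative one in DZ against LZ, and none passed. Over all tested genes 61.2% and 34.8% had a positive difference in those comparisons. An unadjusted p under 0.05 was reached by 2 of the 6 in each, beside 11.5% of all genes higher against DZ and 11.7% lower in DZ against LZ. Slc50a1, a sugar transporter of the Golgi and plasma membrane, had 15.7, 26.4 and 20.2 FPKM in Foxo1-deficient libraries, 16.9, 14.7 and 10.8 FPKM in DZ and 23.0, 22.0 and 23.3 FPKM in LZ. DZ lay below LZ without overlap (-0.67, adjusted p = 0.185) and overlapped Foxo1-deficient cells. Slc37a4, which carries glucose 6-phosphate into the endoplasmic reticulum and whose loss impairs neutrophils, had 5.83, 2.28 and 4.59 FPKM, 3.15, 3.50 and 1.69 FPKM, and 8.60, 4.86 and 7.23 FPKM in Foxo1-deficient, DZ and LZ libraries (DZ minus LZ -1.07, 0.175). Slc2a8, a glucose transporter of internal membranes, lay near the threshold, with 1.83, 1.11 and 0 FPKM in Foxo1-deficient libraries and 0.385 to 1.10 FPKM in the others. Left out by name were Slc2a1, Slc2a3 and Slc2a6, with differences of -0.19, 0.42 and 0.12 in Foxo1-deficient cells against DZ. In DZ against LZ they had -0.36, -0.48 and -2.21, and Slc2a6 passed (adjusted p = 0.0349). Slc2a6 also passed in Foxo1-deficient cells against LZ (-2.09, 0.0452), so the sums do not cover all sugar transporters. Summed over the 6 members, the level was 36.3 to 38.4 FPKM in Foxo1-deficient libraries, 18.2 to 26.1 FPKM in DZ and 36.7 to 38.8 FPKM in LZ. The median difference was 0.52 against DZ (0.34 and 0.37 with median centring and quantile normalization) and -0.39 in DZ against LZ (-0.20 and -0.23). The first was 0.24 without Foxo1-deficient replicate 1, and the second -0.22 without DZ replicate 1 and -0.59 without DZ replicate 2.

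The carriers of nucleosides and nucleotide sugars feed nucleotide salvage and the glycosylation of proteins in the Golgi, and none of the 22 passed in any comparison; 1, 4 and 4 of them had an unadjusted p under 0.05 in Foxo1-deficient cells against LZ, against DZ and in DZ against LZ, beside 13.4%, 16.3% and 15.4% of all tested genes. The last 2 shares are near those of all genes. Slc35b1, a nucleotide transporter of the endoplasmic reticulum, led the class with 17.0, 20.7 and 19.8 FPKM in Foxo1-deficient libraries, 13.8, 17.5 and 7.34 FPKM in DZ and 24.8, 19.1 and 13.3 FPKM in LZ. The nucleoside transporter Slc29a1, which lets adenosine and other nucleosides equilibrate across the plasma membrane, had 7.09, 14.3 and 20.2 FPKM in Foxo1-deficient libraries, 12.8, 5.07 and 7.51 FPKM in DZ and 20.9, 12.8 and 21.4 FPKM in LZ. The DZ minus LZ difference was -1.08 (interval -1.94 to -0.22, adjusted p = 0.214). Slc43a3, a purine base transporter, had 8.65, 2.72 and 7.58 FPKM in Foxo1-deficient libraries and 12.0, 10.1 and 9.71 FPKM in DZ (-0.78, 0.282). It was 1 of 7 class members with a negative difference against DZ. The other 15 had a positive one, beside 61.2% of all tested genes. Slc35d2, a Golgi nucleotide sugar transporter, had 2.44, 1.69 and 7.99 FPKM, 1.39, 0.949 and 0.0804 FPKM, and 1.9, 4.76 and 3.54 FPKM in Foxo1-deficient, DZ and LZ libraries. Its differences of 1.35 in Foxo1-deficient cells against DZ (0.199) and -1.30 in DZ against LZ (0.238) had wide intervals, from 0.26 to 2.43 and from -2.39 to -0.22. Slc35a1, which supplies sialic acid to the Golgi, averaged 6.31 ± 2.12, 4.54 ± 1.64 and 6.02 ± 0.525 FPKM, and Slc35d1, which supplies sugars for chondroitin sulfate, 2.89 ± 0.929, 2.60 ± 0.581 and 1.78 ± 1.43 FPKM. The 17 members of Slc35 summed to 113 to 126 FPKM in Foxo1-deficient libraries, 84.6 to 112 FPKM in DZ and 108 to 127 FPKM in LZ.

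Transporters of vitamins, lipids and other organic solutes gave the lowest class median in DZ against LZ apart from the 4 genes only named after a transporter, -0.51, and none passed. Of the 14 members 13 were negative, beside 34.8% of all tested genes with a positive difference, and 1 was lower at an unadjusted p under 0.05, beside 11.7%. Slc44a2, a choline transporter-like protein, led them with 28.9, 22.2 and 19.8 FPKM in Foxo1-deficient libraries, 15.6, 16.8 and 17.3 FPKM in DZ and 20.8, 19.1 and 32.2 FPKM in LZ, DZ lowest without overlap. The choline importer Slc44a1 had 6.78, 4.95 and 6.85 FPKM in Foxo1-deficient libraries, 2.05, 0.993 and 3.50 FPKM in DZ and 2.30, 3.49 and 4.24 FPKM in LZ, and the difference of 1.24 against DZ did not pass (0.0926; 0.0425 with sample quality weights). Here Foxo1-deficient cells lay above both zones. The folate importer Slc19a1 had 1.80, 2.33 and 3.60 FPKM in Foxo1-deficient libraries, 0.835, 1.07 and 2.47 FPKM in DZ and 6.87, 3.23 and 6.25 FPKM in LZ, and DZ differed from LZ by -1.40 (0.0951; 0.0380 with sample quality weights). Slc23a2, the vitamin C importer, averaged 3.81 ± 0.495, 2.70 ± 0.409 and 4.97 ± 1.80 FPKM, and Slc46a3, a lysosomal carrier, 5.54 ± 1.5, 2.37 ± 1.29 and 4.68 ± 2.96 FPKM. Slc14a1, the urea transporter known from red cells and their precursors, was lower in Foxo1-deficient cells, with 1.09, 0.692 and 0.370 FPKM, than in DZ, with 3.79, 1.41 and 2.00 FPKM, and LZ, with 7.28, 2.69 and 4.04 FPKM. Its difference of -1.66 against LZ (interval -2.52 to -0.81) missed the threshold (0.0652). Summed erythroid markers had 170 to 553 FPKM in Foxo1-deficient libraries, 13.1 to 21.7 FPKM in DZ and 22.1 to 44.4 FPKM in LZ, and their part in its value was not tested. The class sum was 59.7 to 66.2 FPKM in Foxo1-deficient libraries, 35.8 to 42.2 FPKM in DZ and 59.9 to 71.1 FPKM in LZ.

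**Figure D5:**
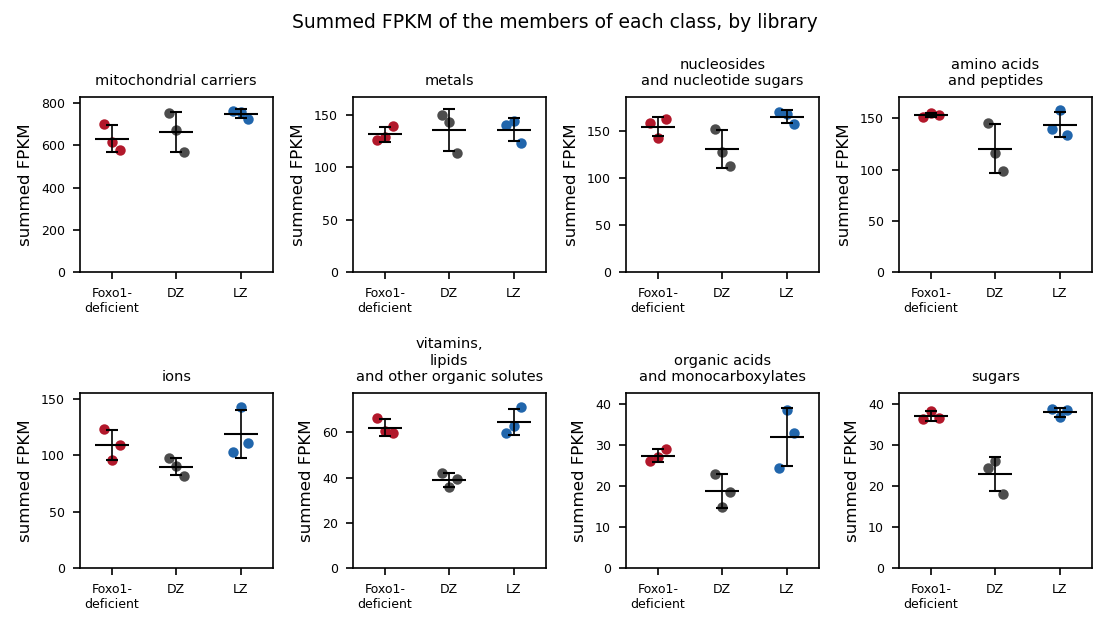
Summed FPKM of the members of each transporter class (y axes, from 0) in the 3 libraries of each group (points), with the mean and SD as bars. DZ lies below both other groups without overlap for sugars (18.2 to 26.1 FPKM), organic acids and vitamins, lipids and other solutes, and overlaps them for mitochondrial carriers and metals.

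Among the genes only named after a transporter, the scaffold Slc9a3r1, which ties membrane proteins to the cytoskeleton, averaged 20.9 ± 10.2, 25.1 ± 3.33 and 15.8 ± 6.61 FPKM in Foxo1-deficient, DZ and LZ libraries. Slc7a6os, a gene beside Slc7a6, averaged 14.9 ± 2.98, 10.0 ± 5.17 and 18.9 ± 5.34 FPKM, and neither passed.

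Membrane transport also rests on genes with other names, of which 58 pumps, channels and partners were listed and 43 tested. Tfrc, the transferrin receptor that brings iron into dividing cells, had 14.4, 11.9 and 10.2 FPKM in Foxo1-deficient libraries, 10.3, 9.51 and 9.17 FPKM in DZ and 20.8, 19.4 and 19.2 FPKM in LZ. It fell by 0.96 in DZ against LZ (adjusted p = 0.0341). This call was lost without any one of the DZ or LZ libraries (0.0895 to 0.107), with median centring (0.0531) and with the replicate block (0.0505). Hvcn1, the proton channel of B cells, fell by 0.96 as well (0.0106, at most 0.0493 in the 17 alternatives), with 67.2, 71.6 and 53.6 FPKM in DZ against 116, 128 and 131 FPKM in LZ. Its locus overlaps Tctn1. Both were lower in DZ without overlap. In Foxo1-deficient cells Abca1, the cholesterol exporter, had 12.5, 11.0 and 5.98 FPKM, against 3.31, 3.47 and 2.01 FPKM in DZ, and rose by 1.43 (0.0320). This call was lost without Foxo1-deficient replicate 1 or 2 or any DZ replicate (0.0766 to 0.116). It was also lost with no filter on low values (0.0643) and in a fit of the 2 compared groups alone (0.0719). LZ libraries had 4.66, 5.73 and 5.55 FPKM of Abca1, and the difference of 0.73 against LZ did not pass (0.325). The part of myeloid cells in its value was not tested. Trf, the iron carrier transferrin of the blood, had 1.12, 2.93 and 2.62 FPKM in Foxo1-deficient libraries and was listed at 0 in all DZ and LZ libraries (0.0264 against DZ and 0.0393 against LZ). Both calls were lost without Foxo1-deficient replicate 2 or 3 or any DZ replicate, and that against LZ also without any LZ replicate (adjusted p up to 0.127). Both were lost as well at a pseudocount of 0.1, in a fit of the 2 compared groups alone and with the replicate block. The call against LZ was further lost with quantile normalization and with sample quality weights, and it stood in 3 of 16 alternatives. Trf, too, was above 1 FPKM only in the libraries with myeloid and erythroid transcripts, whose part was not tested. No other gene of the list passed. Their medians were 0.06 and 0.28 in Foxo1-deficient cells against LZ and DZ and -0.12 in DZ against LZ.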

How the data were processed

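RNA was sequenced from 9 libraries, 3 in each of 3 groups, each from about 10000 sorted cells, extracted with TRIzol and prepared with an NEBNext Ultra kit, per the labels' protocols. Listed in the submitters' processing notes, without their roles, are mm9, Cufflinks 2.1.1 and TopHat2 2.0.8. The authors deposited 1 table of 23700 gene entries per library, in FPKM with confidence bounds, per the file headers; the total behind the scaling, bias correction and strand are not given in the sources used here. Gene positions are on mm9, as deposited; promoter letters are RefSeq on GRCm38.p6 and were matched by symbol.

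Left out were 716 entries of 250 symbols with more than 1 locus and 7 genes with a failed estimate. The 10004 genes with at least 1 FPKM in at least 3 libraries were tested with limma 3.58.1 (R 4.3.3), with an intensity trend, on log2(FPKM + 1), in 1 fit of the 3 group means, without covariates. P-values are two-sided and adjusted by Benjamini-Hochberg within each comparison, with a threshold of 0.05; differences are the first-named group minus the second and understate the change of low genes. The fit was tested on simulated data. The depth is not stated; the relative depth was estimated from the confidence bounds of 8662 genes. A 0 in the genes kept may still be an estimate that failed without being flagged, and is given as listed. Whether replicates were separate animals is not in the labels, so the p-values measure library-to-library variation only, possibly technical.

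The members, classes, partner and marker lists were chosen with earlier results of these data known. Genes are named if called, among the 2 highest of their class, among the 5 largest uncalled differences each way with an unadjusted p under 0.05, known from lymphocytes or iron handling or next to the threshold; some members that this rule names are not reported here. Alternatives were a pseudocount of 0.1, no filter, a mean of at least 5 FPKM, median centring, quantile normalization, only the compared groups, a replicate block, sample quality weights and each library left out.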

Additional observations from a re-analysis of the deposited data

How the results depend on the processing

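Foxo1 kept its direction and its side of the threshold in every alternative. For Foxo1-deficient cells against LZ, 156 genes passed; the count was 99 with a pseudocount of 0.1, 81 among genes with a mean of at least 5 FPKM, 58 in a fit of the 2 compared groups alone, and 48 to 145 with 1 library left out. The 1 member and the 1 partner gene became 0 under the first 3 of these, in the filtered one because Slc40a1 and Trf lie under it. The members were 2 with the replicate block (Slc14a1 joined Slc40a1) and 0 to 2 with 1 library left out; the partners were 2 with median centring, 0 with the replicate block, 0 with sample quality weights and 0 to 1 with 1 library left out. For Foxo1-deficient cells against DZ, the 285 genes became 127 to 246 with 1 library left out, and the 3 members 0 at a mean of at least 5 FPKM, 5 with median centring, 1 with the 2 compared groups alone, 6 with sample quality weights and 1 to 3 with 1 library left out. The 2 partners were 1 with a pseudocount of 0.1, 1 with no filter on low values, 1 at a mean of at least 5 FPKM, 1 with the replicate block, 4 with quantile normalization, 0 with the 2 compared groups alone and 0 to 2 with 1 library left out. In DZ against LZ, the 194 genes became 109 with no filter on low values, 122 with the 2 compared groups alone and 72 to 210 with 1 library left out; the 1 member became 0 with no filter, 0 with the replicate block, 2 at a mean of at least 5 FPKM, 2 with sample quality weights and 0 to 2 with 1 library left out; and the 2 partners 1 with the replicate block, 4 with sample quality weights and 1 to 2 with 1 library left out. The median of the members against DZ became 0.127 with median centring and 0.15 with quantile normalization (all genes -0.055 and 0.001), and in DZ against LZ -0.087 and -0.103 (all genes 0.043 and 0.008). With 1 library left out the members' median ran from -0.10 to 0.05 in Foxo1-deficient cells against LZ, from 0.22 to 0.36 against DZ and from -0.34 to -0.23 in DZ against LZ. No called value reversed its direction. The cause of these shifts was not tested. Whether the replicate numbers pair the libraries was not settled. Deviations from group means of same-numbered libraries correlated only at -0.07 to 0.08, while 6 of 9 libraries were closest to their own number. With the replicate block the call of Slc36a4 (adjusted p = 0.0520) was lost and Slc14a1 (0.0429) and Slc25a45 (0.0476) passed, which was decided by shared numbers only. With 3 libraries a group, the low members, 37 of them under 2 FPKM, limited what could be detected.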
